A study of Mus musculus with 6 samples.

Results

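The Fos, Jun and small Maf genes were examined as 10 genes of the 34718 in the deposited table: Fos, Fosb, Fosl1, Fosl2, Jun, Junb, Jund, Maff, Mafg and Mafk. They were taken by gene symbol, all 10 were found, and all 10 passed the filter on low counts. The set was chosen by known family membership together with the expression differences between these same control and knockdown libraries, so those differences are given as a description. Counts of members past an adjusted threshold are printed beside the share or number of all genes past it. No such count is a test of the members. The measurements are RNA sequencing counts from Hepa1-6, a mouse hepatoma line grown in culture. There were 3 libraries of control cells, titled shNC, and 3 of cells with Zfp207 knockdown, titled shZfp207. One tag in the labels calls the tissue a tumor, while the growth protocol describes cultured cells. The labels do not say how many hairpins were used, so an off-target effect and the loss of Zfp207 cannot be told apart. They also do not say whether replicates were separate cultures, and p-values then measure only the spread between these libraries. In such bulk RNA, fewer cells of a kind and less RNA per cell cannot be told apart either.

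Fos and Jun proteins are basic leucine zipper transcription factors that pair into AP-1, a dimer that binds short palindromic DNA sites. Jun proteins can pair with each other, whereas Fos proteins bind DNA stably only with a Jun or related partner. Fos, Fosb, Jun and Junb are classical immediate-early genes, switched on within minutes by growth factors and stress through MAP kinases, and Jund is made more steadily. The small Maf proteins have a zipper but no activation domain, and they pair with NRF2 and related factors to act on antioxidant response elements, or with each other or with Bach proteins to repress. In hepatocytes AP-1 is known for its part in regeneration and tumour formation.

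The libraries held 11933736 to 16248346 counts, and a count of 0 would allow at most 3 counts, or 0.185 to 0.251 counts per 1000000 (CPM), covering counting error only. Values below are CPM scaled by TMM factors unless FPKM, which also divides by gene length, is named. The targeted gene, Zfp207, stood at 139.8, 198.6 and 216.2 CPM in the controls and at 47.3 to 48.5 CPM after knockdown. Control replicate 1 stood apart from the other controls, with 10.5% of its counts from mitochondrially encoded genes against 2.67% to 2.89% in the other controls and 5.6% to 6% in knockdown libraries. Log2 fold changes of the members and the ratios of Fosb and Jund to their paralogs are given with and without it. All 10 hepatocyte markers had counts, summing to 6364 to 7682 CPM in control and 7954 to 8194 CPM in knockdown libraries, although Ttr did not exceed 0.345 CPM and Apoa1 did not exceed 3.47 CPM. Of 8 immune markers, Cd3e and Cd8a were at 0 and the list summed to 11.9 to 18.9 CPM, mostly Cd68, while 5 endothelial markers summed to 0.619 to 2.07 CPM. Of 6 fibroblast and stellate cell markers, Dcn (1995 to 2791 CPM) and Pdgfra were present and Col1a1, Col1a2, Pdgfrb and Des were each below 2 CPM, and the list summed to 2022 to 2305 CPM in control and 2699 to 2811 CPM in knockdown libraries. The part of such cells in the results was not tested.

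Sequence before the start of a gene is shown for Fosb and Jund, the members with the widest difference between the groups, for Fos and Jun as their paralogs, and for Maff as the most abundant small Maf. Each run is the 250 bases before the RefSeq start (GRCm38.p6, 5′ to 3′ on the gene's strand). Capitals mark TGACGTCA, TGACATCA, the shorter TGACG and TATAAA, found on either strand.
Fosb (chr7:19310046-19310295, minus strand): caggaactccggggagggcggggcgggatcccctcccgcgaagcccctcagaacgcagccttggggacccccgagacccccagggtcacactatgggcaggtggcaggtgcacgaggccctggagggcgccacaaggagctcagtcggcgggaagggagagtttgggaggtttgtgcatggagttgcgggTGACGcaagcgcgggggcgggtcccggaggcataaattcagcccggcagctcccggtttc
Fos (chr12:85473640-85473889, plus strand): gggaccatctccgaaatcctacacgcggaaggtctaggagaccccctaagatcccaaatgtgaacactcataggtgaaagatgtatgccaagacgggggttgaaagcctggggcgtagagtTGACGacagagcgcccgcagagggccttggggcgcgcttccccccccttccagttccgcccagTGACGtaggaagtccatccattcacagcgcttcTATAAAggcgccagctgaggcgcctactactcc
Jund (chr8:70697489-70697738, plus strand): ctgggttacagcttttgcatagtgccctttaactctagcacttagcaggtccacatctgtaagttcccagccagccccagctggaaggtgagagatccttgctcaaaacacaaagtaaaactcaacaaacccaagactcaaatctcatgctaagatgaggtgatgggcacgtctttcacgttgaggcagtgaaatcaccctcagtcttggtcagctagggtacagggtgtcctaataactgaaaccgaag
Jun (chr4:95052223-95052472, minus strand): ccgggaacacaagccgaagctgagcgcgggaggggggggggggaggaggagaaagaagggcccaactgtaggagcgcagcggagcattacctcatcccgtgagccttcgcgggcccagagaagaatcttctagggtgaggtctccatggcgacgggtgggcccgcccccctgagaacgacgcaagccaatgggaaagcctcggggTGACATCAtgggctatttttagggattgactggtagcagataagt
Maff (chr15:79347270-79347519, plus strand, the second of 3 starts): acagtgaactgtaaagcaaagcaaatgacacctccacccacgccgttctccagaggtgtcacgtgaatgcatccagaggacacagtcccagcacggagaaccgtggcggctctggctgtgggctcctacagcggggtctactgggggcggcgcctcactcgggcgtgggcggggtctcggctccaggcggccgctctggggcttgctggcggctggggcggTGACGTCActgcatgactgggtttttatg
Motifs were searched on both strands in 11 windows of 9 members, and the same search was made in 32851 windows of all genes. TGACG, the core of the cyclic AMP response element and a part of TGACGTCA, was in at least 1 window of Fos, Fosb, Junb, Maff, Mafg and Mafk, and in 17.8% of all windows; it was added to the search after the sequences were seen. In Fosb it began 60 bases before the start and in Fos 129 and 66 bases before it. The full TGACGTCA was found in the Maff window shown (1.55% of all windows). TGACATCA, a site in the Jun promoter that binds Jun with ATF2, began 45 bases before the Jun start, and it was also in another Maff window (2.93% of all). TATAAA was in the Fos window alone among the members (12.4% of all), and TGACNNNGC, the core of the antioxidant response element, was in 1 window each of Maff, Mafg and Mafk (10.2% of all). Neither TGACTCA, the consensus AP-1 site (4.46% of all), nor the CArG box that binds serum response factor (1.47% of all) was in any member's window. Sites more than 250 bases before a start were not searched, so their absence from the genes is not shown. The Jund window held none of the letters searched, including CCAAT and GGGCGG. GENCODE places the start of Jund 1210 bases downstream, and that start was not covered by the window. Fosl1 was not in the table of promoters.

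Among the Fos genes, Fosb was the furthest apart between the groups, Fos and Fosl1 were moderately lower in knockdown cells, and Fosl2 was at about the same level. Fosb (chromosome 7, 19302721 to 19310045 in mm10, minus strand), which also gives a shortened, long-lived protein in neurons, had 20.2 CPM in control replicate 1, 14.3 in replicate 2 and 17.5 in replicate 3, beside 6.75, 4.41 and 5.59 CPM in knockdown replicates 1 to 3. The groups did not overlap, and control replicate 1 was the highest of the 6 libraries. The means were 17.3 ± 2.96 and 5.58 ± 1.17 CPM (SD, n = 3 each), a log2 fold change of -1.63 (SE 0.211). Without control replicate 1 it was -1.51 (SE 0.183).

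Fos (chromosome 12, 85473890 to 85477273, plus strand), the founding partner of Jun in AP-1, had 19.96, 24.95 and 24.01 CPM in the control libraries and 16.5, 16.6 and 15.6 CPM in the knockdown libraries. Each knockdown library was below each control library, with a log2 fold change of -0.50 (SE 0.126), or -0.59 (SE 0.0849) without control replicate 1. Fosl1 (chromosome 19, 5447703 to 5455945, plus strand), which encodes Fra-1, a Fos protein common in invasive epithelial tumours, had 134.1, 177.5 and 182.8 CPM in control and 112.3, 100.4 and 105.5 CPM in knockdown libraries. The groups again did not overlap, with a log2 fold change of -0.64 (SE 0.137), or -0.76 (SE 0.0568) without control replicate 1. That library was the control nearest to knockdown for both genes. Fosl2 (chromosome 5, 32135801 to 32157842, plus strand), which encodes Fra-2, had 94.5, 93.5 and 103.1 CPM in control and 93.6, 87.1 and 91.3 CPM in knockdown libraries, so that the groups overlapped. Its log2 fold change was -0.10 (SE 0.0865), or -0.12 (SE 0.0635) without control replicate 1.

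Among the Jun genes, Jund was lower in knockdown cells, Junb did not separate the groups, and Jun lay between them. Jund (chromosome 8, 70697739 to 70700616, plus strand), known in several cell types as a brake on proliferation, had 56.1 CPM in control replicate 1, 128.3 in replicate 2 and 150.3 in replicate 3, beside 41.9, 34.8 and 35.4 CPM in knockdown replicates 1 to 3. All control libraries were above all knockdown libraries, but control replicate 1 was far below the other controls and close to knockdown. The means were 111.6 ± 49.3 and 37.3 ± 3.95 CPM (SD, n = 3 each), with a log2 fold change of -1.58 (SE 0.344) that was -1.90 (SE 0.103) without control replicate 1. The deposited span of Jund holds Gm11175, a gene on the opposite strand, over 543 bases, and Gm11175 itself had 0.0409 CPM in control and 0.0219 CPM in knockdown cells. By GENCODE, exons of Gm11175 cover 52.6% of the exonic length of Jund. Whether the counting used strand is not stated in the labels. Deposited spans also overlap between Jun and Junos (689 bases), Mafk and Tmem184a (169 bases) and Mafg and Sirt7 (124 bases), and Junos and Tmem184a had under 0.3 CPM on average in both groups. In GENCODE, opposite-strand exons of Ccdc85b cover 57.2% of the exonic length of Fosl1, and those of Prdx2 cover 7.52% of Junb. The deposited spans of these pairs lie 843 and 2074 bases apart.

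Jun (chromosome 4, 95049034 to 95052222, minus strand), which forms the strongest AP-1 dimers with Fos, had 23.9, 32.4 and 36.8 CPM in control and 23.3, 23.2 and 20.5 CPM in knockdown libraries. The lowest control, replicate 1, was only just above the highest knockdown library, and the log2 fold change was -0.48 (SE 0.174). Leaving out that control gave -0.63 (SE 0.0995). Junb (chromosome 8, 84976909 to 84978748, minus strand), which often opposes Jun, had 140.7, 240.1 and 267.2 CPM in control and 239, 209 and 218.8 CPM in knockdown libraries. The knockdown libraries lay inside the control range, with a log2 fold change of 0.04 (SE 0.23) that became -0.19 (SE 0.0709) without control replicate 1 and -0.01 with upper-quartile scaling.

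The small Maf genes were at similar or slightly higher levels in knockdown cells. Maff (chromosome 15, 79347541 to 79359072, plus strand) had 119.4, 125.1 and 140.2 CPM in control and 165.9, 156.6 and 160.3 CPM in knockdown libraries, with no overlap and a log2 fold change of 0.33 (SE 0.094). Mafk (chromosome 5, 139791513 to 139802653, plus strand) had 82.5, 67.8 and 74.8 CPM in control and 95.9, 93.3 and 96.3 CPM in knockdown libraries, also without overlap, with a log2 fold change of 0.34 (SE 0.0994). Leaving out control replicate 1 gave 0.28 (SE 0.0602) for Maff and 0.42 (SE 0.0614) for Mafk. Mafg (chromosome 11, 120625117 to 120633600, minus strand) had 132.5, 95.9 and 93.4 CPM in control and 132.2, 127.4 and 132.7 CPM in knockdown libraries. Control replicate 1 had the level of the knockdown libraries there, so the groups overlapped, and the log2 fold change of 0.29 (SE 0.148) was 0.47 (SE 0.0472) without that library.

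**Figure D1:**
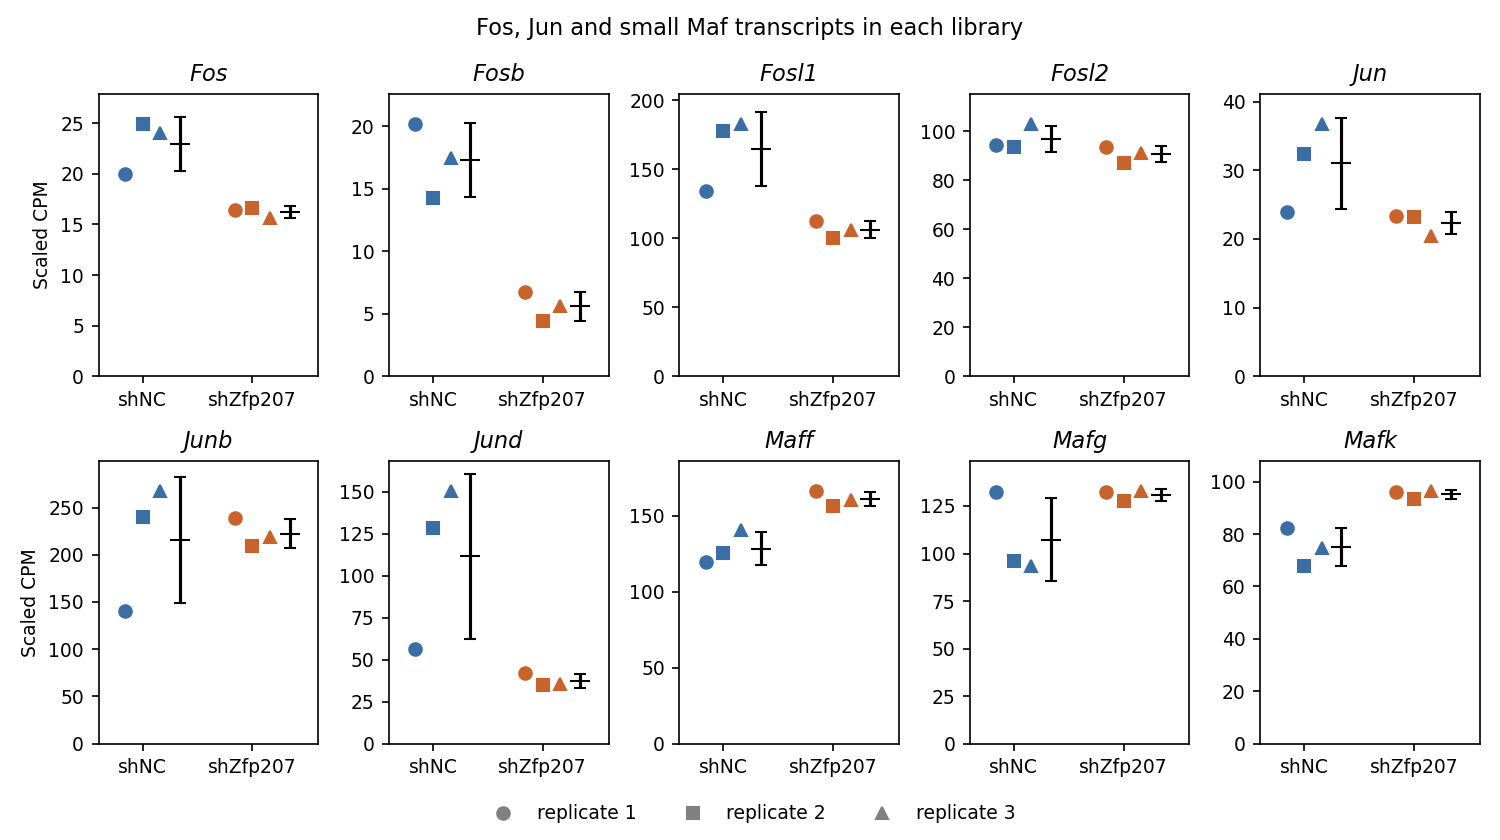
Scaled CPM (vertical axis, from 0, a separate scale for each gene) of the 10 genes in each control (shNC, blue) and knockdown (shZfp207, orange) library, with the mean and SD in black. Fosb, Fos, Fosl1, Jund and Jun have every knockdown library below every control library, and Maff and Mafk have every knockdown library above. Replicate 1 of the controls is the lowest control for Jund, Junb, Jun, Fosl1, Fos and Maff.

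The counts in this paragraph describe values that also chose the members, so nothing is read from them. In the edgeR quasi-likelihood fit across all 11975 genes tested, 4 of the 10 members (Fos, Fosb, Fosl1 and Jund) were lower past the threshold used for all genes, an adjusted p of 0.05, where 20.6% of all genes were past it and 10.7% were past it and lower. The count of higher members was 0, beside 9.92% of all genes, and 2 at an unadjusted p below 0.05, where all genes are not counted here. It was also 2 with DESeq2 and without mitochondrially encoded genes. It was 1 with RLE scaling and with the 1 CPM filter, and 0 with limma, upper-quartile scaling and no filter beyond 1 count. Calls over all genes, higher and lower together, were 3063 with DESeq2, 2461 without mitochondrially encoded genes and 2460 with RLE scaling. They were 2429 with the 1 CPM filter, 2461 with limma, 2584 with upper-quartile scaling and 2009 with no filter beyond 1 count. The groups did not overlap for 7 members, 5 lower and 2 higher, beside 44.7% of all genes. The median log2 fold change was -0.29 over the 10 members and -0.03 over all genes tested. Without control replicate 1 the count was 8, 5 lower and 3 higher, in a fit where 52.1% of genes were past the threshold. Without any other single library it was 1, which was Fosb. Calls over all genes were fewer in those fits too. They were 1529 and 1260 without control replicates 2 and 3, beside 2466 with all libraries. They were 719, 596 and 534 without knockdown replicates 1 to 3.

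Ratios between paralogs in the same library do not depend on how libraries are scaled, and they were compared for Fosb and Jund against their relatives as a description. The log2 ratio of Fosb to Fos, from deposited FPKM, was 0.03, -0.79 and -0.44 in control replicates 1 to 3 and -1.27, -1.90 and -1.46 in knockdown replicates 1 to 3. The group means differed by -1.15 on the log2 scale, or -0.93 without control replicate 1. Against Fosl1 the difference was -1.02, and -0.76 without control replicate 1. Against Fosl2 it was -1.54, and -1.41 without that library. In all 3 ratios the knockdown libraries were below all control libraries.

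The log2 ratio of Jund to Junb was -1.97, -1.55 and -1.48 in control replicates 1 to 3 and -3.16, -3.23 and -3.27 in the knockdown libraries. The group means differed by -1.56, or -1.71 without control replicate 1, and the SD over the control libraries was 0.267. Jund and Junb were both low in control replicate 1. The log2 ratio of Jund to Jun was 1.38, 2.13 and 2.18 in control and 1.00, 0.73 and 0.94 in knockdown libraries. The group means differed by -1.01, or -1.27 without control replicate 1, with a control SD of 0.447. The ratios of Maff to Mafg and to Mafk differed by 0.03 and -0.02 between the group means, and their groups overlapped.

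**Figure D2:**
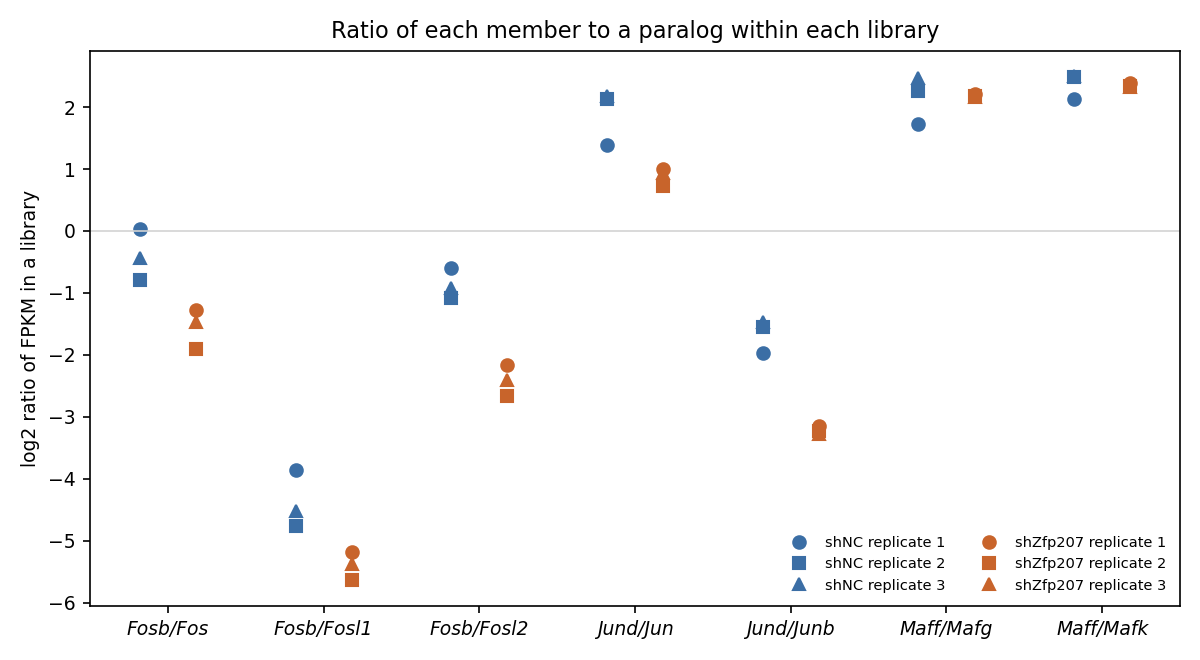
The log2 ratio of FPKM of each named pair (vertical axis) in each control (blue) and knockdown (orange) library, with a marker shape for each replicate number. The 3 Fosb ratios and the 2 Jund ratios have all orange points below all blue points, and the Maff ratios overlap.

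In FPKM, Fosl1 was the most abundant Fos gene and Junb the most abundant Jun gene in every library. Fosl1 made up 83.3% ± 2.3 of the summed FPKM of the Fos family in control and 82.1% ± 0.219 in knockdown cells (SD, n = 3 each). The sum itself was 98.3, 121.7 and 127 FPKM in the control libraries and 79.9, 71.1 and 74.4 FPKM in the knockdown libraries. Fosb made up 4.11% ± 1.27 of it in control and 1.96% ± 0.307 in knockdown cells, and Fosl2 made up 7.31% ± 0.934 in control and 10.3% ± 0.206 in knockdown cells. In the control means the order was Fosl1, Fosl2 (8.37 ± 0.455 FPKM), Fos (6.06 ± 0.658 FPKM) and Fosb (4.63 ± 0.824 FPKM). In deposited FPKM, Fos was above Fosb in control replicates 2 and 3 (6.54 against 3.79 and 6.33 against 4.66 FPKM). In control replicate 1 Fos and Fosb were close, at 5.31 and 5.44 FPKM. They were apart in knockdown libraries (4.25 ± 0.159 against 1.48 ± 0.317 FPKM).

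The make-up of the Jun family differed between the groups. Jund was 18.9%, 24.1% and 25% of the summed Jun FPKM in control replicates 1 to 3 and 9.59%, 9.09% and 8.93% in the knockdown libraries. Junb made up 73.9%, 70.4% and 69.5% in control and 85.4% to 86.4% in knockdown libraries. The summed Jun FPKM overlapped between the groups, at 104.4, 184.2 and 209 FPKM in control and 151.5, 131.6 and 136.1 FPKM in knockdown libraries. The small Maf sum was higher in each knockdown library (103.7 to 110 FPKM) than in each control library (81.4 to 89.8 FPKM), with Maff at 70.4% ± 4.4 of it in control and 70.6% ± 0.403 in knockdown cells.

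FPKM levels of different genes carry the lengths the authors used. The length implied for Fos, 3801 bases, exceeded its annotated exonic length of 2352, and that for Jund, 2885, exceeded 1668. Scaled CPM per kilobase of the longest GENCODE coding transcript, a scale added after the data were seen, gave Jund 33.2% of the Jun family in control and 14.7% in knockdown cells. It kept Fosl1, Junb and Maff as the most abundant of their families and put Mafk above Mafg, the opposite of their FPKM order. On that scale Fos was well above Fosb in the control means too (10.9 and 4.58 CPM per kilobase). The knockdown means were 7.70 and 1.48 CPM per kilobase, so the distance between Fos and Fosb in control FPKM depends on the lengths used. Within-gene differences are not touched by length.

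**Figure D3:**
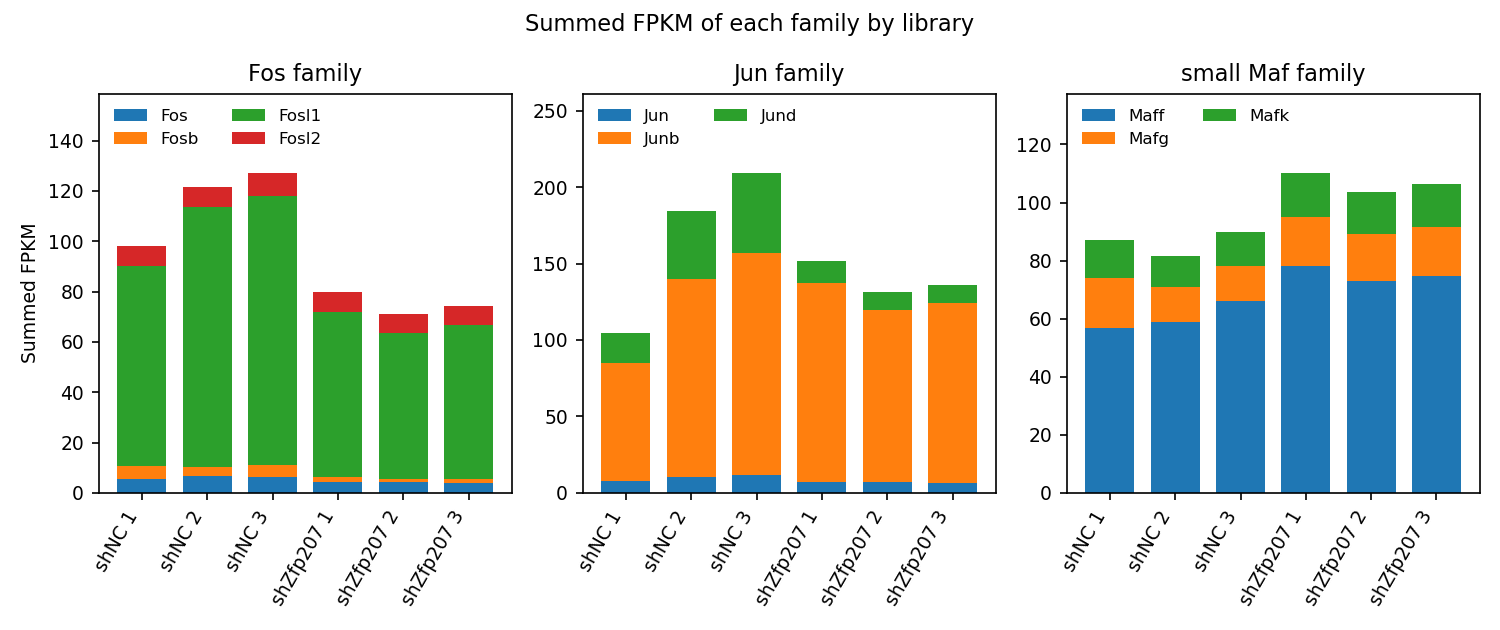
Stacked bars of deposited FPKM (vertical axis, from 0) for the Fos, Jun and small Maf families in each of the 6 libraries. Jund is a smaller slice in the knockdown bars than in any control bar, Fosl1 is the largest slice of each Fos bar, and the Jun bar of control replicate 1 is the shortest of its family.

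The place of control replicate 1 differed from member to member. For Jund it lay at -1.31 relative to the mean of control replicates 2 and 3 on the log2 scale, where knockdown lay at -1.90. For Jun it lay at -0.53 beside -0.63 in knockdown cells, and for Mafg at 0.49 beside 0.47, so that this control library matched the knockdown level. For Junb it lay at -0.85, further than knockdown at -0.19. For Fosb it lay at 0.35, on the other side from knockdown at -1.52. For Fos and Fosl1 it lay at -0.29 and -0.43 beside -0.59 and -0.77 in knockdown cells.

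Jund and Junb are short genes of a single exon and rich in G and C. The longest coding transcript of Jund was 67.1% GC, above 99.9% of tested genes, and that of Junb was 62.6% GC, beside a median of 50% over 11220 tested genes. The 23 other tested genes within 2 percentage points of Jund's GC had a median of -0.31 in control replicate 1 and -0.47 in knockdown cells, against control replicates 2 and 3 on the log2 scale. For Fosb (56% GC) the 2125 such genes had medians of 0.01 and -0.04. The part of base composition and of the mitochondrial share in these results was not tested.

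**Figure D4:**
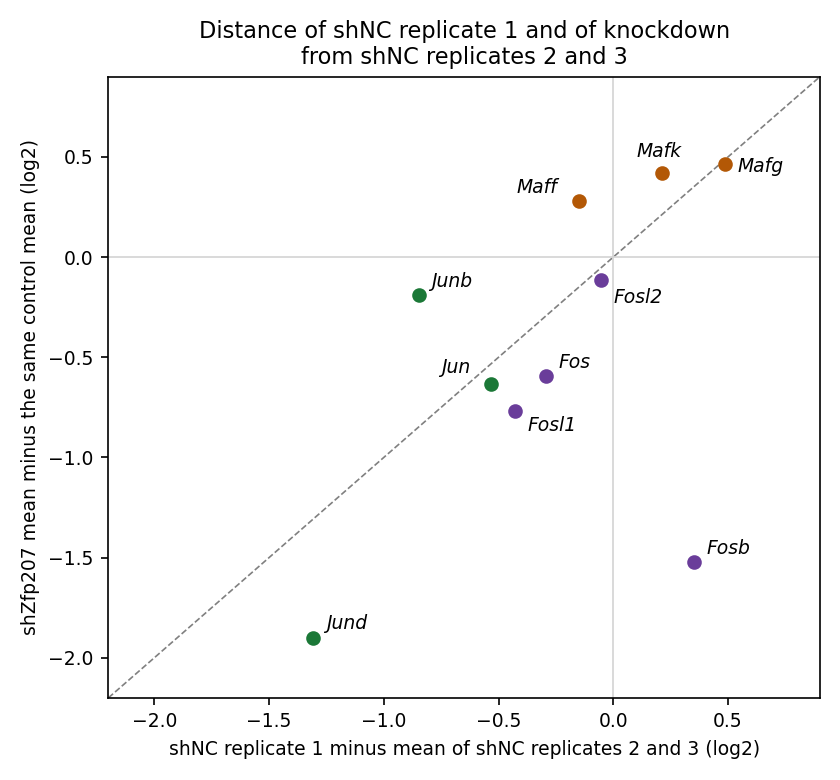
Each point is a member, placed by the log2 distance of control replicate 1 (horizontal axis) and of the knockdown mean (vertical axis) from the mean of control replicates 2 and 3, in purple for Fos, green for Jun and orange for small Maf genes, with equality dashed. Jund lies low on both axes (-1.31 and -1.90), Fosb is low on the vertical axis only (-1.52), and Jun and Mafg lie close to the line.

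AU-rich elements in the 3′ untranslated region are a known mark of short-lived immediate-early messages. ATTTA was present in the 3′ untranslated region of the longest coding transcript of all 10 members, from 1 match in Fosb, Fosl1 and Jund to 8 in Fosl2, and in 69.9% of 11146 tested genes. The longer TATTTAT was present in 8 members, all but Junb and Mafk, and in 30.3% of tested genes. Fos had 2 such matches, and Fosb, Jun and Jund had 1 each.

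The genes with library patterns closest to Fosb and Jund were found by Pearson correlation of log2 CPM over the 6 libraries among 9934 genes of at least 5 CPM, as a description. For Fosb they were Fuca2, Noc2l, Zfp566, Txndc12 and Prss22 (r 0.995 to 0.997). Of these, Prss22, a serine protease gene, had the widest difference, with means of 17.8 ± 1.9 and 8.29 ± 1.31 CPM. For Jund they were Vat1, Pfkl, Sf3b4, Ttyh3 and Samhd1 (r 0.997 to 0.999), all of them low in control replicate 1 like Jund. Pfkl, the liver phosphofructokinase gene, had means of 228.3 ± 55.2 and 129.8 ± 8.58 CPM.

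Of the 20 nearest tested genes on either side of the members, 2 were called higher and 4 lower, or 30% beside 20.6% of all genes. The gaps ran from 0 bases (Mafg and Sirt7) to 505284 bases (Jun and Fggy), and untested genes may lie in them. Next to Jund, Lsm4 and Pde4c did not separate the groups, at -0.18 on the log2 scale for Lsm4 (edgeR adjusted p = 0.508, SE 0.179) and -0.16 for Pde4c (edgeR adjusted p = 0.652, SE 0.226). Next to Fosb, the DNA repair gene Ercc1 fell from 42.1 ± 9.21 to 20.9 ± 0.5 CPM (edgeR adjusted p = 0.00991) and was called in 3 of the 6 fits with a library left out, those without a control, while Rtn2 had a log2 fold change of -0.44 (edgeR adjusted p = 0.128). The 2 tested genes nearest to Fos, 99172 and 121831 bases away, rose. Tmed10, a gene of vesicle traffic, went from 37.5 ± 7.7 to 126.4 ± 1.7 CPM (edgeR adjusted p = 0.00275, a log2 difference of 1.75 with SE 0.161), and Jdp2, which encodes a repressor that pairs with Jun, from 28.9 ± 3.06 to 39.3 ± 2.74 CPM. The phospholipase gene Plb1, 74865 bases from Fosl2, fell from 34.4 ± 8.23 to 5.79 ± 0.0585 CPM (edgeR adjusted p = 0.00157, a log2 difference of -2.57 with SE 0.193). Tmed10 and Plb1 were called in each of the 6 fits with a library left out.

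Genes that work with the members were examined as 7 lists, also chosen with earlier results of these data known. Calls below are from the edgeR fit across all genes, where 20.6% of genes passed, or 52.1% without control replicate 1. Calls over all genes fell from 2466 to 1529 and 1260 without control replicates 2 and 3. Without knockdown replicates 1 to 3 they fell to 719, 596 and 534. A lower count of a list in those fits is therefore not read as a trait of the list. Among 20 genes of basic leucine zipper partners, 14 could be tested, and 2 rose and 1 fell, with a median log2 fold change of 0.02 beside -0.03 for all genes. Nfe2l1, which encodes an NRF2 relative that pairs with small Maf proteins, had 52.6, 101.4 and 112.4 CPM in control and 215.8, 195.6 and 480.9 CPM in knockdown libraries. It rose by 1.74 on the log2 scale (SE 0.431, edgeR adjusted p = 0.0337), with knockdown replicate 3 well above the others. Jdp2 rose by 0.44 (SE 0.12, edgeR adjusted p = 0.0437). Nfe2l3, another such relative, fell, with 25, 28 and 23 counts in control and 0, 5 and 0 counts in knockdown libraries (edgeR adjusted p = 0.0233). Nfe2l1 and Jdp2 were called with control replicate 1 left out and with no other library left out, and Nfe2l3 without control replicate 1 or knockdown replicate 2. The list had 9 calls without control replicate 1, then 1, 0, 0, 1 and 0 without control replicates 2 and 3 and knockdown replicates 1 to 3.

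Among the upstream kinases and serum response factors, 22 of 26 genes could be tested, and 3 rose and 1 fell (median 0.01). Map2k4, a kinase that activates JNK, the kinase of Jun, had 50.8, 76.6 and 66.6 CPM in control and 157.3, 164.2 and 162.9 CPM in knockdown libraries. It rose by 1.32 (SE 0.154, edgeR adjusted p = 0.00427) and was called in each of the 6 fits with a library left out. Map2k3, a kinase of p38, rose by 0.92 and the ternary complex factor gene Elk3 by 0.52 (edgeR adjusted p = 0.0209 and 0.045). Map2k2, a kinase of ERK, fell by 0.46 (edgeR adjusted p = 0.0349). Map2k3 was called without any 1 control but not without any 1 knockdown library, and Map2k2 and Elk3 were called only without control replicate 1. The count was 11 without control replicate 1, 2 and 3 without control replicates 2 and 3, and 1 without each knockdown replicate.

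Among the feedback inhibitors of MAP kinases, 15 of 17 genes could be tested, and 4 rose and 0 fell, with a median log2 fold change of 0.24. At an unadjusted edgeR p below 0.05 also 0 were lower, and DESeq2 and limma called 0 lower. Of all genes, 9.92% were called higher and 10.7% lower in the edgeR fit. With so small a share lower, 0 of 15 is not read as a trait of the list. DESeq2 called 3063 and limma 2461 of all genes, higher and lower together. All genes are not counted here at the unadjusted threshold. Dusp6, a phosphatase of ERK and a standard readout of its activity, had 518.7, 536.1 and 525.9 CPM in control and 665, 653.6 and 645.4 CPM in knockdown libraries, a narrow separation of 0.31 on the log2 scale (SE 0.0859, edgeR adjusted p = 0.0451). Dusp9 rose by 0.71 (SE 0.104, edgeR adjusted p = 0.00725), Spred1 by 0.61 and Dusp5 by 0.46. Dusp9 was called in 5 of the 6 fits with a library left out, Spred1 in 3, Dusp5 in 2 and Dusp6 in 1. Without control replicate 1 there were 8 calls, 5 higher and 3 lower, and the median was 0.08. The count was 3 and 2 without control replicates 2 and 3, then 1, 1 and 0 without knockdown replicates 1 to 3.

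Other immediate-early genes went both ways. Of 26 genes, 21 could be tested, and 2 rose and 2 fell (median -0.06). The YAP and serum response target Cyr61, also named Ccn1, had 162.7, 125.4 and 129.2 CPM in control and 242.7, 248.5 and 246.4 CPM in knockdown libraries, and rose by 0.82 (SE 0.121, edgeR adjusted p = 0.00725). The antiproliferative gene Btg2 rose by 0.55 (SE 0.0803, edgeR adjusted p = 0.00719). The orphan nuclear receptor genes Nr4a2 and Nr4a1 fell by 0.91 and 0.89 (edgeR adjusted p = 0.0135 and 0.0318). Cyr61 was called with each library left out, while Btg2 was called in 4 of those 6 fits, Nr4a2 in 3 and Nr4a1 in 1. The list had 12 calls without control replicate 1, 3 and 3 without control replicates 2 and 3, and 2, 1 and 1 without knockdown replicates 1 to 3.

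Textbook AP-1 target genes also went both ways. Of 24 genes, 18 could be tested, and 3 rose and 4 fell, with a median of -0.33. The cytokine gene Lif rose by 0.96 and the growth factor gene Hbegf by 0.82 (edgeR adjusted p = 0.003 and 0.00323). Spp1, the gene of osteopontin, had 948, 775.9 and 716.3 CPM in control and 370, 366.5 and 376.3 CPM in knockdown libraries, and fell by 1.13 (SE 0.128, edgeR adjusted p = 0.00397). The growth factor gene Areg fell by 0.66 and the chromatin protein gene Hmga1 by 0.45 (edgeR adjusted p = 0.0136 and 0.029), and the fourth lower gene was Timp1, which lies outside the naming rule. Lif, Hbegf and Spp1 were called in each of the 6 fits with a library left out, Areg in 3 and Hmga1 in 1. The list had 13 calls without control replicate 1, 6 and 5 without control replicates 2 and 3, and 4 without each knockdown replicate.

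Of 16 target genes of NRF2 with small Maf proteins, 15 could be tested, and 2 rose and 2 fell (median 0.10). The quinone reductase gene Nqo1 rose by 2.36 (SE 0.224, edgeR adjusted p = 0.00288). Its level was low, at 1.17 to 1.74 CPM in control and 6.76 to 8.09 CPM in knockdown libraries. Gclc, a subunit of the enzyme that limits glutathione synthesis, rose by 0.59. The glutathione transferase gene Gsta4 fell by 0.82 (SE 0.142, edgeR adjusted p = 0.0115) and Pgd, of the pentose phosphate pathway, by 0.37. Nqo1 was called in each of the 6 fits with a library left out, Gsta4 in 3, and Gclc and Pgd in 1. The list had 10 calls without control replicate 1, 2 and 2 without control replicates 2 and 3, and 1 without each knockdown replicate.

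All 17 genes that act on the turnover of Fos and Jun messages or proteins could be tested, and 3 rose and 1 fell (median -0.02). Zfp36l2, which binds AU-rich messages and promotes their decay, had 30.4, 46.6 and 52.7 CPM in control and 100, 99.3 and 102.5 CPM in knockdown libraries, and rose by 1.22 (SE 0.197, edgeR adjusted p = 0.00947). Trib1 and Rfwd2, also named Cop1, which act together in protein degradation, rose by 0.47 and 0.35 (edgeR adjusted p = 0.0412 and 0.0398). Cnot7, a deadenylase subunit, fell by 0.61 (edgeR adjusted p = 0.0345). Zfp36l2 was called in 4 of the 6 fits with a library left out, Cnot7 in 2, and Trib1 and Rfwd2 in 1. The list had 8 calls without control replicate 1, 1 and 2 without control replicates 2 and 3, and 1, 0 and 0 without knockdown replicates 1 to 3.

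**Figure D5:**
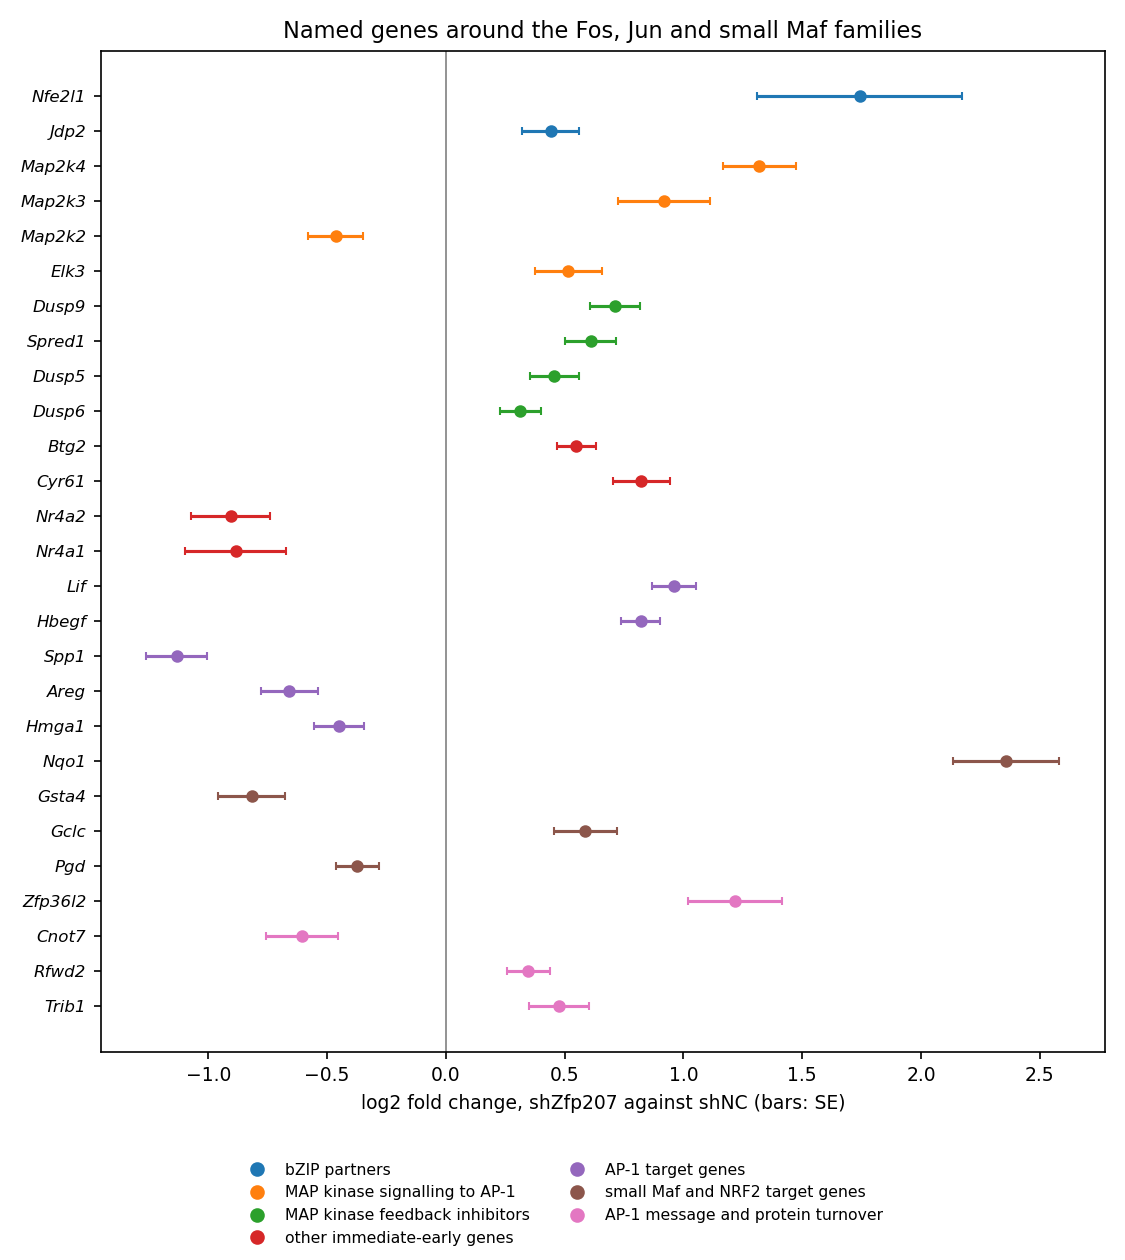
Log2 fold change of knockdown against control (horizontal axis) with its SE for the genes of the 7 lists named in the text, coloured by list; Nfe2l3 is left out because 2 of its knockdown libraries had 0 counts. The 4 feedback inhibitors shown lie to the right, while AP-1 targets and other immediate-early genes lie on both sides, from Spp1 at -1.13 to Lif at 0.96.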

How the data were processed

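RNA was sequenced from 3 control and 3 Zfp207 knockdown samples of Hepa1-6 cells, grouped by title. The authors deposited whole-number read counts per gene and FPKM values, which divide the count by a gene length and by the library total. Per the submitters' processing notes HISAT2 2.0.5, featureCounts 1.5.0-p3 and mm10 were used. Their roles, the annotation and the strand setting are not stated.

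Counts were tested in edgeR 4.0.16 (R 4.3.3) with filterByExpr, which left 11975 genes, TMM scaling and a quasi-likelihood model with group as its term over all 6 libraries. Two-sided p-values were adjusted by Benjamini-Hochberg over all genes tested, with a threshold of 0.05. The SE is the log2 fold change divided by the square root of F. The procedure was tested on simulated data. Sequences, strand and transcripts came from RefSeq (GRCm38.p6) and GENCODE M21 (GRCm38, the assembly of mm10), and coordinates of genes from the deposited table.

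The members and lists were chosen with earlier results of these data known. The naming rule took all members, in each list up to 6 called genes by smallest p, the 5 genes most like Fosb and Jund, and the nearest tested gene on each side of each member. Alternatives were RLE and upper-quartile scaling, leaving out mitochondrially encoded genes, no filter beyond 1 count, a filter of 1 CPM in 3 libraries, DESeq2 1.42.0, limma 3.58.1 on log2(FPKM + 0.1), the replicate number as a block and each library left out. Each pair of libraries differed by more than sampling noise. The values of 1 gene that this rule names among the AP-1 targets are not reported here, though it is counted in that list.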

Additional observations from a re-analysis of the deposited data

How the results depend on the processing

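Leaving out control replicate 1 raised each count of calls, and leaving out any other library lowered or kept it. With each library left out in turn the calls ranged from 534 to 6313 for all genes, 1 to 8 for the Fos, Jun and small Maf members, 0 to 9 for partners, 1 to 11 for upstream kinases, 0 to 8 for feedback inhibitors, 1 to 12 for immediate-early genes, 4 to 13 for AP-1 targets, 1 to 10 for NRF2 targets and 0 to 8 for turnover genes. The log2 fold change of Junb ranged from -0.19 to 0.22, and was -0.0113 with upper-quartile scaling. The difference in the Maff to Mafg ratio ranged from -0.19 to 0.18 and that in the Maff to Mafk ratio from -0.137 to 0.0488. Of the genes beside the members, Ccdc85b ranged from -0.346 to 0.111 and Mysm1 from -0.0243 to 0.168. The Fosb and Jund ratios kept their direction in each such comparison. With the replicate block there were 987 calls over all genes, 1 for the members, 1 for partners, 2 for upstream kinases, 1 for feedback inhibitors, 2 for immediate-early genes, 2 for NRF2 targets and 1 for turnover genes. Same-numbered samples deviated together only weakly (r of 0.00123, 0.0168 and 0.0479 across genes). With 3 libraries a group and control replicate 1 apart, these values cannot decide whether same-numbered samples were paired. The labels do not say whether replicates were separate cultures. Without the filter on low counts 2 upstream kinases and 2 turnover genes were called, and DESeq2 called 7 NRF2 targets. The share of Jund in the Jun family, 22.6% in control and 9.2% in knockdown cells, was 33.2% and 14.7% per kilobase of transcript, a scale added after the data were seen. The causes of these changes were not tested. With 3 libraries a group and 1 of the controls apart, the modest differences of Maff and Mafk fell on either side of the threshold with the setting.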

Other observations

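Several genes of the lists had 1 library far from the others of its group. Spry1, a feedback inhibitor of growth factor signalling, had 356, 297 and 3 counts in control replicates 1 to 3 and 526, 513 and 509 counts in the knockdown libraries. Tgfa, a ligand of the EGF receptor, had 176.2, 22.1 and 172.3 CPM in control and 41.7, 57.1 and 36.8 CPM in knockdown libraries. Mapk14, which encodes p38 alpha, had 94.8, 79 and 34.5 CPM in control and 104.1 to 106.2 CPM in knockdown libraries. The outlying control library was replicate 3 for Spry1 and Mapk14 and replicate 2 for Tgfa, not replicate 1. None of these 3 genes was called (edgeR adjusted p = 0.497, 0.178 and 0.242), and they were chosen after their values were seen.

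Atf3 and Egr1, stress and growth factor responsive genes often measured beside Fos, were lowest or nearly so in control replicate 1. Atf3 had 55.3, 105.2 and 130.8 CPM in control and 54.8 to 72 CPM in knockdown libraries, and Egr1 had 181.9, 382.7 and 372 CPM in control and 400.7 to 417 CPM in knockdown libraries. Neither was called (edgeR adjusted p = 0.201 and 0.349), and both were chosen after their values were seen.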
